A study of Homo sapiens with 66 samples.

Results

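Autophagy is the process in which cells wrap cytoplasm, protein aggregates or organelles in a double membrane and deliver them to the lysosome for breakdown. Initiation depends on the ULK1 kinase and on the lipid kinase complex that holds BECN1, the growing membrane recruits WIPI proteins, and a complex of ATG5 with ATG12 and ATG16L1 attaches small proteins of the ATG8 family, such as MAP1LC3B and GABARAPL1, to its lipids. SQSTM1 (p62) is a receptor that ties ubiquitinated cargo to ATG8 proteins, TFEB is a transcription factor for lysosome and autophagy genes, and DRAM1 is a lysosomal membrane protein known as a target of p53. Etoposide poisons topoisomerase II and leaves DNA double-strand breaks. The expression of these 10 genes, chosen by symbol out of 57992 gene identifiers counted, is described here before and after etoposide in cell lines of acute myeloid leukaemia (AML).

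RNA was sequenced from 11 established AML cell lines, THP-1, MONO-MAC-6, NOMO-1, MOLM-13, MV-4-11, OCI-AML2, OCI-AML3, HL-60, NB-4, KASUMI-1 and F-36P, each untreated, with medium only, or treated for 24 hours with etoposide at its own IC50, the concentration that leaves 50% of cells viable. Each of the 22 groups had 3 libraries, each from wells pooled before extraction. The etoposide concentration and the culture medium differed between lines, so line and dose cannot be told apart in any comparison of the lines. The study discarded its etoposide libraries of OCI-AML2 after quality control, so that line gives basal levels only and its drug comparison stands apart. The methods call replicates biological in general terms, but no source used here says that the libraries of a group came from separate cultures, so the p-values measure the spread between these libraries, which may be technical.

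Libraries held 17997404 to 24101670 reads on genes (median 20241014). Levels are given as CPM, counts scaled to a common library size and normalized for composition. For cell type markers alone, CPM was scaled to library size without that normalization. PTPRC, CD33 and SPI1, which mark myeloid cells, were read in all 11 lines, whereas MPO and CEBPA were at 0.946 and 0.536 CPM in untreated F-36P. In bulk RNA, fewer cells that express a gene and less RNA per cell cannot be told apart. CDKN1A, the p53-responsive inhibitor of the cell cycle used here as a check that the drug acted, was induced in 10 of 10 lines, from 1.86 on the log2 scale in MV-4-11 to 5.46 in OCI-AML3. MDM2, the p53 ubiquitin ligase and also a p53 target, was induced in 3 of 10 lines, MOLM-13, MV-4-11 and OCI-AML3. F-36P stood apart, since its median number of genes with reads went from 21158 untreated to 30067 with etoposide, and KASUMI-1 followed with 19716 and 24895.

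Each member matched 1 identifier, and all 10 passed the filter on low counts in every line. On GRCh38 the genes lie at chr12:131894622-131923150 (ULK1, plus strand), chr17:42810134-42833350 (BECN1, minus), chr5:179806398-179838078 (SQSTM1, plus), chr16:87383953-87404779 (MAP1LC3B, plus) and chr12:10212458-10223128 (GABARAPL1, plus). The others lie at chr6:106045423-106325791 (ATG5, minus), chr2:233210051-233295674 (ATG16L1, plus), chr17:68420948-68457513 (WIPI1, minus), chr6:41683978-41736259 (TFEB, minus) and chr12:101877580-102012130 (DRAM1, plus). In gencode release 44 no member shared an exon with another gene of the same strand. The values fit a count by strand, but no source used here states it, so reads from the exons that BECN1, SQSTM1, WIPI1 and MAP1LC3B share with antisense genes (1095, 1687, 956 and 60 bases) are uncertain. MAP1LC3B2 is a near-identical copy of MAP1LC3B, so reads that fit both are uncertain. The copy held at most 0.686 CPM as a mean of any group.

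The windows before RefSeq start sites of the members with the most calls are shown so that a reader can see the sequence that precedes each such site. They are RefSeq promoter windows on GRCh38.p14, 250 bases ending at the base before the start site, each read 5′ to 3′ on the strand of its gene: WIPI1 at chr17:68457497-68457746 (minus strand), GABARAPL1 at chr12:10212627-10212876 (plus), MAP1LC3B at chr16:87392086-87392335 (plus) and SQSTM1 at chr5:179806143-179806392 (plus; 1 of its 3 windows, the one nearest to the gencode gene start). By the gencode spans given above, only the SQSTM1 window lies wholly before its gene. Those of GABARAPL1 and MAP1LC3B lie inside their genes, and that of WIPI1 overlaps the start of its gene. Capitals mark matches on either strand to 4 motifs, the E-box CACGTG that TFEB family factors are known to bind, the cyclic AMP response half-site TGACGT, the antioxidant response core TGACNNNGC and the CCAAT box.
WIPI1: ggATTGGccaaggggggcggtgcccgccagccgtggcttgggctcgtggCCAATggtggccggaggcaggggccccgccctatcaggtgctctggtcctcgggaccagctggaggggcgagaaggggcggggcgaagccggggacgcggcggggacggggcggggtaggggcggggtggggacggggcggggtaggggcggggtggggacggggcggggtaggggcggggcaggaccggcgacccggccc
GABARAPL1: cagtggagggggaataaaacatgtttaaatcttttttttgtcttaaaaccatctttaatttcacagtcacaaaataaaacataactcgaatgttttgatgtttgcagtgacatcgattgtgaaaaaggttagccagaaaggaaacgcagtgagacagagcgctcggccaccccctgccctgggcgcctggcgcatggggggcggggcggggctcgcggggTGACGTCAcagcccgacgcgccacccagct
MAP1LC3B: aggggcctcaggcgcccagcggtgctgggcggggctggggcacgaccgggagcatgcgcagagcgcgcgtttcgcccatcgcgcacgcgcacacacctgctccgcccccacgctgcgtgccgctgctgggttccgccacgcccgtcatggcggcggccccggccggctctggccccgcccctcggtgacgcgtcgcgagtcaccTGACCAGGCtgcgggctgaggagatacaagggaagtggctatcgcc
SQSTM1: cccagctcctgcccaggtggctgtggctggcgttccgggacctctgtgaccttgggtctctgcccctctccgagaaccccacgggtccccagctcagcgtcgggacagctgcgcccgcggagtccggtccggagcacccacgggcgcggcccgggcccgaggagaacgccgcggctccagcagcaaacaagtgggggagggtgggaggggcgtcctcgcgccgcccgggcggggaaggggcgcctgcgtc
All 10 members had at least 1 window in the RefSeq table, with 15 windows in all, and each window was searched over its 250 bases before and 50 after the start site. CACGTG was in 0 of the 15 windows, against 7.26% of the 35116 windows of all genes. TGACGT was in 1 window, that of GABARAPL1, where it matched on both strands in 1 overlapping palindrome, against 7.98% of all windows. TGACNNNGC was in 1 window, that of MAP1LC3B, against 13.3% of all windows, and CCAAT was in 3 windows, those of WIPI1, ATG5 and BECN1, against 34.6%. These are matches of letters in a short window and say nothing about binding.

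Untreated levels differed between the 11 lines for all 10 members (edgeR quasi-likelihood F test, FDR below 0.05), as they did for 99.4% of the 18130 genes tested. The size of the difference separated the members. The highest line exceeded the lowest by 44.7-fold for DRAM1, 38.6-fold for TFEB and 18.7-fold for WIPI1, whereas the ratio was 1.86 for BECN1, 1.96 for ATG16L1, 2.45 for MAP1LC3B and 2.497 for ULK1. Over 12164 genes with a median of at least 1 CPM the median ratio was 3.74, with quartiles of 2.49 and 12.1. GABARAPL1 (9.34), SQSTM1 (4.64) and ATG5 (4.56) lay between. Of the 55 pairs of lines, DRAM1 differed in 52, WIPI1 in 49, TFEB in 46, GABARAPL1 in 44, BECN1 and SQSTM1 in 43, ATG5 in 42, ATG16L1 in 38, MAP1LC3B in 37 and ULK1 in 35, against 66.8% of pairs over all genes.

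DRAM1 had the widest range of basal levels. In KASUMI-1 its 3 untreated libraries held 89.5, 88.1 and 85.8 CPM. In HL-60 they held 1.89, 2.02 and 1.99 CPM. Every KASUMI-1 library was thus far above every HL-60 library, and 7 of the 10 steps between neighbouring lines in the order of DRAM1 levels passed the test. The order ran from KASUMI-1 through NOMO-1 and OCI-AML2, which did not differ beyond their spread (adjusted p = 0.569, edgeR), then F-36P, MOLM-13, MONO-MAC-6 and OCI-AML3 (the last pair 14.5 and 14.0 CPM, adjusted p = 0.755), THP-1 and NB-4 (adjusted p = 0.251), MV-4-11 at 4.77 CPM and HL-60 at 1.97 CPM.

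TFEB fell into a group of lines above 10 CPM and a group below 4 CPM. THP-1 was highest at 28.5 CPM, above OCI-AML2 at 22.6 CPM (adjusted p = 0.00805), which did not differ from MOLM-13 at 21.3 CPM beyond the spread. NOMO-1, MV-4-11, MONO-MAC-6 and OCI-AML3 lay at 10.5 to 12.8 CPM with no neighbouring pair that differed. The step down from OCI-AML3 to HL-60 at 3.01 CPM was 1.80 on the log2 scale (SE 0.14, adjusted p = 3.75e-13). KASUMI-1 and NB-4 followed at 2.64 and 2.05 CPM, and F-36P was lowest, with 0.521, 1.06 and 0.627 CPM in its 3 libraries, below NB-4 by 1.47 on the log2 scale (adjusted p = 2.40e-06).

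WIPI1, which binds the phosphoinositide made by the BECN1 complex, had the opposite extreme in F-36P, whose libraries held 22.2, 19.1 and 23.2 CPM. That was 1.19 higher on the log2 scale than the next line, MONO-MAC-6, at 9.35 CPM (adjusted p = 2.33e-09). HL-60 (7.89 CPM), NB-4 (5.94 CPM) and OCI-AML3 (5.93 CPM) followed, the last 2 without a difference, then NOMO-1, KASUMI-1, OCI-AML2, MOLM-13 and THP-1 from 3.97 down to 1.84 CPM, each next to a neighbour that it did not differ from beyond the spread. MV-4-11 was lowest, at 1.06, 1.30 and 1.10 CPM.

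Of the ATG8 proteins, GABARAPL1 was highest in HL-60 and NB-4, at 15.5 and 14.5 CPM, which did not differ (adjusted p = 0.566), and lowest in MV-4-11, where the libraries held 2.12, 1.47 and 1.39 CPM. MV-4-11 lay 1.65 on the log2 scale below the next line, MONO-MAC-6 (adjusted p = 2.00e-09). MAP1LC3B was more even. F-36P at 56.0 CPM stood above NB-4 at 38.6 CPM (adjusted p = 6.42e-07), and from NB-4 down to MONO-MAC-6 at 22.8 CPM none of the 9 steps between neighbours passed the test.

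SQSTM1 was highest in MONO-MAC-6, with 334, 372 and 396 CPM, all above every library of the next line, MOLM-13, at 144, 160 and 177 CPM. The other 9 lines had means of 79.2 to 131 CPM, with OCI-AML2 lowest. ATG5 was highest in THP-1 at 73.5 CPM and lowest in KASUMI-1 at 16.1 CPM, while BECN1 ran from 110 CPM in HL-60 to 59.3 CPM in KASUMI-1, ULK1 from 46.5 CPM in KASUMI-1 to 18.6 CPM in MONO-MAC-6 and ATG16L1 from 13.6 CPM in MONO-MAC-6 to 6.96 CPM in KASUMI-1. For these 4 genes only 1 or 2 of 10 steps between neighbours passed the test. Per kilobase of exon, the median untreated level over lines was highest for SQSTM1 (15.3 CPM per kb) and BECN1 (12.6 CPM per kb), then MAP1LC3B (6.58 CPM per kb) and ATG5 (5.61 CPM per kb), and lowest for TFEB (1.69 CPM per kb) and WIPI1 (1.17 CPM per kb).

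**Figure D1:**
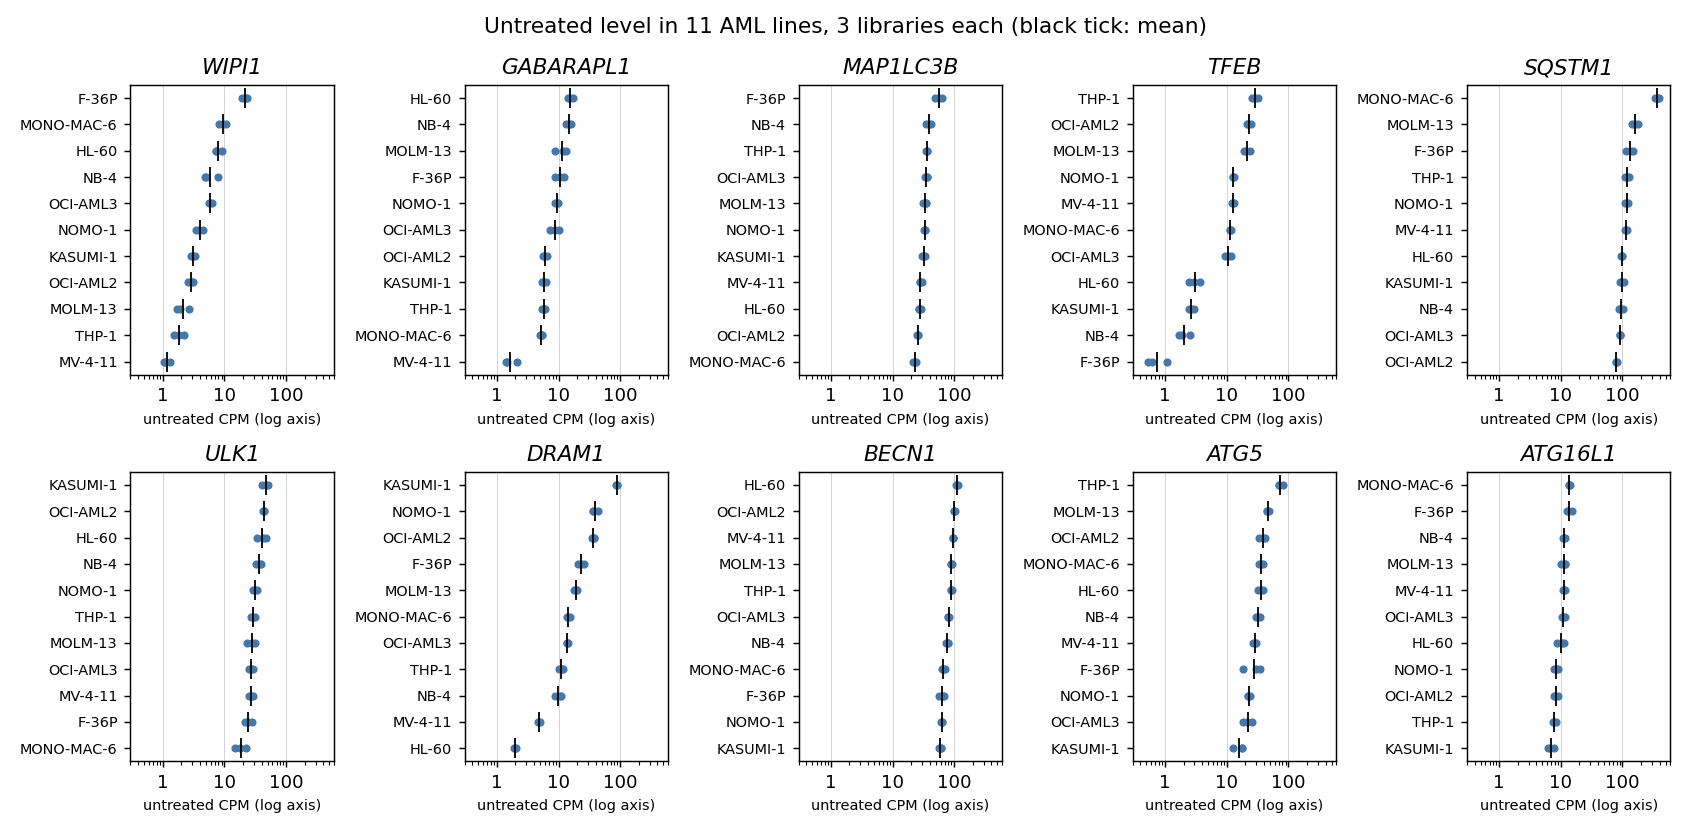
Untreated level of each member in 11 AML lines. The horizontal axis is CPM on a log scale, each point is 1 of 3 libraries, the black tick is the mean, and lines are sorted by their mean. The highest line mean exceeds the lowest by 44.7-fold for DRAM1, 38.6-fold for TFEB and 18.7-fold for WIPI1, and by 1.86-fold for BECN1 and 1.96-fold for ATG16L1.

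Between 2 and 4 of the 10 members were induced by etoposide in each line analysed. Taking as induced a fold of more than 2 at an FDR under 0.05, as the study did, 31 of the 100 combinations of member and line were induced, against 11.1% of the 143149 combinations of all genes, and 0 of 100 were repressed, against 3.96%. Without a minimum fold, 69 were higher (27.7% of all combinations) and 5 were lower (24.4%). Every etoposide library lay above every untreated one in 76 combinations (32.7% of all) and below in 6 (26.6%). The members were chosen with earlier results of these data known, so the shares beside those of all genes are a description and no independent test. The calls fell on 6 genes, with WIPI1 induced in 9 of 10 lines, GABARAPL1 in 8, MAP1LC3B in 5, SQSTM1 in 4, TFEB in 3 and DRAM1 in 2. ULK1, BECN1, ATG5 and ATG16L1 were induced in 0 lines by edgeR. At an unadjusted p under 0.05 and any fold, ULK1 was higher in 7 lines, BECN1 in 6 and ATG5 in 2, and ATG5 was lower in 1 line and ATG16L1 in 4. In either direction, 5671 of 13210 genes tested in HL-60 and 10120 of 15911 in F-36P had such a p, the lowest and highest counts of the 10 lines. Such a p was thus common among all genes. DESeq2 also called none of the 4 genes induced.

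By line, F-36P, NOMO-1 and THP-1 had 4, HL-60, KASUMI-1, MONO-MAC-6, NB-4 and OCI-AML3 had 3, and MOLM-13 and MV-4-11 had 2. The share of all genes induced was 24.3% in F-36P, 14.6% in KASUMI-1, 13.2% in NB-4, 12.5% in MV-4-11, 8.59% in MOLM-13, 8.53% in MONO-MAC-6, 8.34% in NOMO-1, 7.18% in OCI-AML3, 6.38% in THP-1 and 5.34% in HL-60. Without F-36P, a count made after seeing the data, 27 of 90 combinations were induced, against 9.41% of all genes. The median log2 fold change of the 100 combinations was 0.65, against 0.01 over all genes tested.

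**Figure D2:**
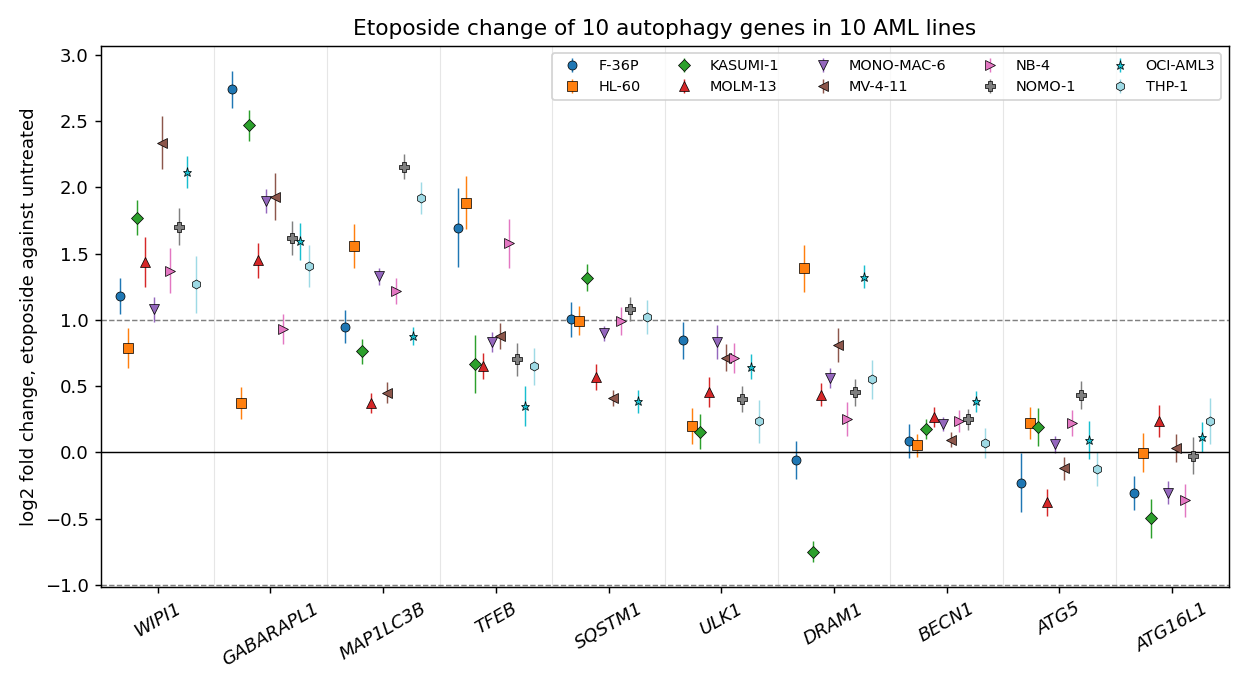
Etoposide change of each member in 10 lines. The vertical axis is the log2 fold change of etoposide against untreated from edgeR, each symbol is 1 line, error bars are standard errors, and dashed lines mark a 2-fold change. WIPI1, GABARAPL1, MAP1LC3B and SQSTM1 lie above 0 in all 10 lines, ATG5 and ATG16L1 scatter around 0, and DRAM1 ranges from -0.75 in KASUMI-1 to 1.39 in HL-60.

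With 1 value per line, 7 members were higher on average over the 10 lines, each with a positive change in 10 of 10 lines and adjusted p = 0.00991 (two-sided exact sign-flip permutation test), which comes from the smallest p that sign flips over 10 lines can give, 0.00195. The mean log2 fold changes (SD over lines) were 1.64 (0.69) for GABARAPL1, 1.51 (0.48) for WIPI1, 1.16 (0.59) for MAP1LC3B, 0.99 (0.53) for TFEB, 0.87 (0.31) for SQSTM1, 0.52 (0.27) for ULK1 and 0.18 (0.11) for BECN1. By the same test 17.6% of 10588 genes were higher and 25.7% lower. DRAM1 was positive in 8 of 10 lines with a mean of 0.50 (adjusted p = 0.0757 by the exact test, 0.0368 by limma). ATG5 (0.04, adjusted p = 0.714) and ATG16L1 (-0.09, adjusted p = 0.413) did not pass the exact test either, and their lines went both ways.

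The ATG8 protein GABARAPL1 had the largest single changes. In F-36P it went from 12.5, 10.6 and 8.88 CPM to 72.8, 68.3 and 78.6 CPM, a log2 fold change of 2.74 (SE 0.14, adjusted p = 1.03e-06, edgeR). In KASUMI-1 it went from 5.50, 5.67 and 6.34 to 33.6, 36.6 and 29.95 CPM, a log2 fold change of 2.47 (SE 0.12, adjusted p = 4.42e-07). The groups were far apart in both lines. In HL-60, by contrast, it went from 14.0, 16.9 and 15.6 to 21.9, 18.6 and 20.99 CPM, a log2 fold change of 0.37 (SE 0.12, adjusted p = 0.0294), and in NB-4 from 13.02, 14.9 and 15.7 to 28.8, 27.5 and 29.6 CPM, 0.93 (SE 0.11). HL-60 and NB-4, the only lines without a call, were those with the highest basal level, and after etoposide HL-60 lay below F-36P, KASUMI-1, MOLM-13, NB-4, NOMO-1 and OCI-AML3. Basal level and change share the untreated libraries, so they are not independent. The other 6 lines changed by 1.41 to 1.93 on the log2 scale. In all 10 lines every etoposide library was above every untreated one.

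MAP1LC3B, the other ATG8 protein among the members, had its largest changes elsewhere. In NOMO-1 it went from 32.1, 33.9 and 33.4 to 142, 161 and 132 CPM, a log2 fold change of 2.16 (SE 0.10, adjusted p = 3.65e-08, edgeR). In THP-1 it went from 35.0, 36.3 and 35.9 to 147, 136 and 135 CPM, a log2 fold change of 1.92 (SE 0.12, adjusted p = 2.06e-09). HL-60, where GABARAPL1 changed least, went from 26.9, 26.8 and 29.0 to 83.6, 58.9 and 107 CPM, a log2 fold change of 1.56 (SE 0.16, adjusted p = 2.62e-05), with the widest spread among its etoposide libraries. MONO-MAC-6 (1.33) and NB-4 (1.22) were also induced. MOLM-13 had the smallest change, from 31.7, 34.2 and 35.1 to 46.0, 44.8 and 45.8 CPM, or 0.37 (SE 0.07, adjusted p = 0.00173), and MV-4-11 was next at 0.45. F-36P, with the highest basal level, changed by 0.95, just under the fold minimum.

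WIPI1 was induced in more lines than any other member. In MV-4-11 it went from 1.06, 1.30 and 1.10 to 5.22, 5.54 and 7.31 CPM, a log2 fold change of 2.34 (SE 0.20, adjusted p = 1.49e-09, edgeR). In OCI-AML3 it went from 5.56, 5.81 and 6.41 to 22.9, 24.6 and 28.9 CPM, a log2 fold change of 2.11 (SE 0.12, adjusted p = 7.92e-06). The groups did not overlap in any of the 10 lines. HL-60 was the exception to the calls, with 7.20, 9.28 and 7.20 untreated and 15.4, 12.04 and 14.4 CPM with etoposide, a log2 fold change of 0.79 (SE 0.15, adjusted p = 0.00137). MONO-MAC-6 was called at 1.08, and F-36P, with the highest basal level, at 1.18.

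SQSTM1, the cargo receptor, rose in 10 of 10 lines at an FDR below 0.05, in several of them close to the fold minimum. KASUMI-1 had the largest change, from 90.1, 95.9 and 105 to 227, 283 and 238 CPM, a log2 fold change of 1.32 (SE 0.10, adjusted p = 4.81e-06, edgeR). NOMO-1 (1.08), THP-1 (1.03) and F-36P (1.00) were called, while HL-60 (1.00, just below 2-fold) and NB-4 (0.99) were not, so the call count of 4 turns on the threshold. Without etoposide replicate 2 the values of NOMO-1 and THP-1 were 1.00 and 0.94, both just below 2-fold, and without untreated replicate 3 that of F-36P was 0.82. MONO-MAC-6 kept the highest level, from 334, 372 and 396 to 674, 700 and 678 CPM, a log2 fold change of 0.90 (SE 0.06, adjusted p = 9.33e-08). OCI-AML3 (0.39) and MV-4-11 (0.41) changed least.

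**Figure D3:**
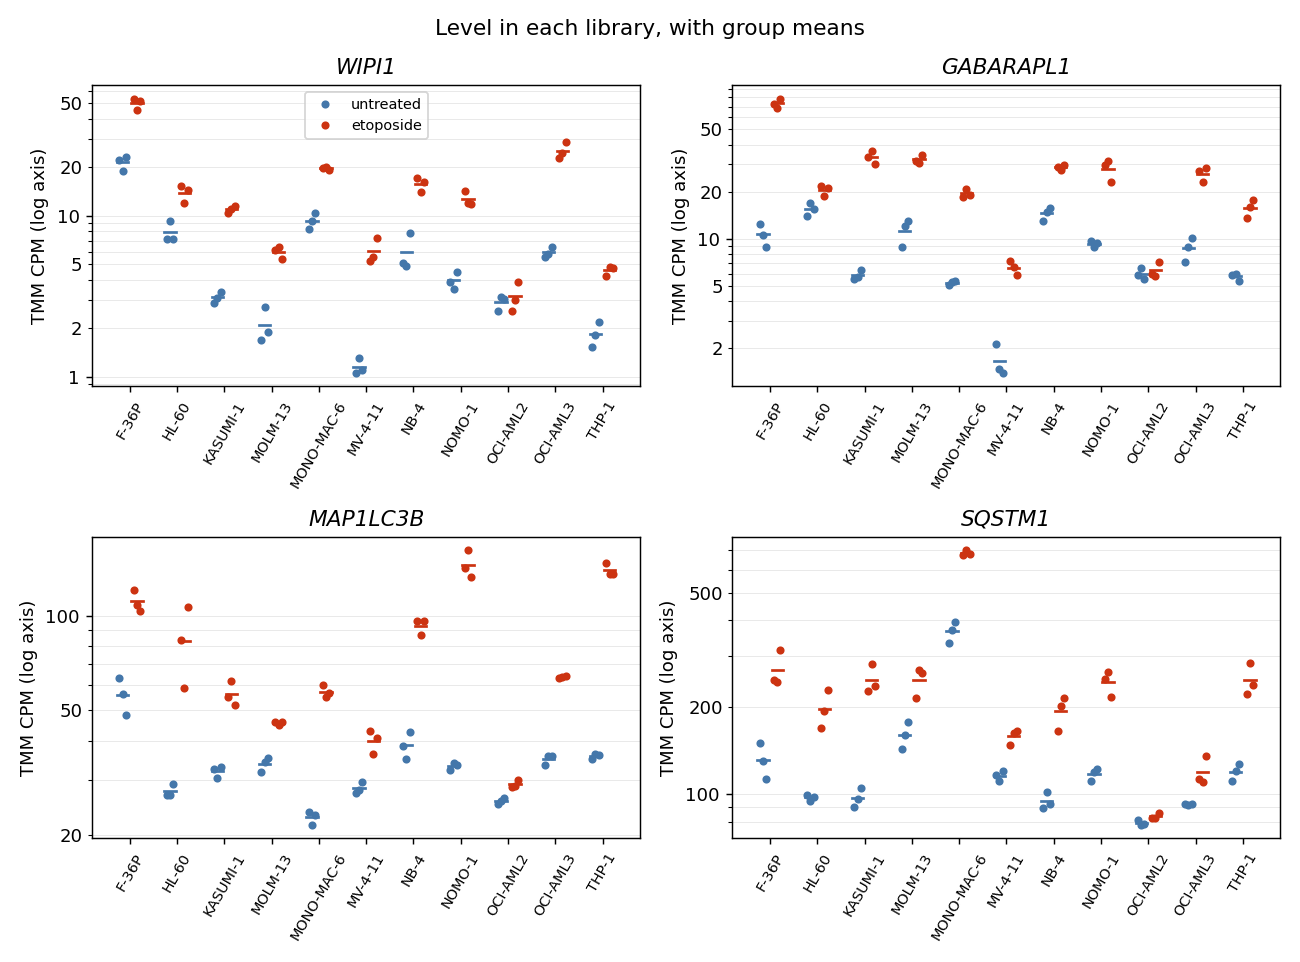
Level of WIPI1, GABARAPL1, MAP1LC3B and SQSTM1 in each library of 11 lines. The vertical axis is CPM on a log scale, blue points are untreated and red points etoposide libraries, and bars are group means. In the 10 lines other than OCI-AML2 the red points of each gene lie above the blue ones.

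TFEB was higher in 9 of 10 lines and induced in 3, which were 3 of the 4 lines with the lowest basal level. Here too the untreated libraries enter both the basal level and the change. In HL-60 it went from 2.43, 3.65 and 2.95 to 9.38, 10.4 and 14.3 CPM, a log2 fold change of 1.88 (SE 0.20, adjusted p = 2.67e-05, edgeR). In F-36P it went from 0.521, 1.06 and 0.627 to 2.17, 3.03 and 2.25 CPM, a log2 fold change of 1.70 (SE 0.30, adjusted p = 0.00068), and in NB-4 from 1.69, 1.91 and 2.55 to 5.94, 6.53 and 6.45 CPM, 1.58 (SE 0.19, adjusted p = 3.75e-06). KASUMI-1, also low, changed by 0.67 (SE 0.22, adjusted p = 0.0235). The lines above 10 CPM changed by 0.35 to 0.88, and only in OCI-AML3 did the groups overlap (adjusted p = 0.0945). Even after etoposide the TFEB level of F-36P stayed below the untreated level of 6 lines analysed that lay above 10 CPM.

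DRAM1 went both ways. In HL-60 it went from 1.89, 2.02 and 1.99 to 5.199, 5.33 and 5.28 CPM, a log2 fold change of 1.39 (SE 0.18, adjusted p = 8.86e-05, edgeR), and in OCI-AML3 from 14.3, 13.8 and 13.8 to 34.6, 32.4 and 37.3 CPM, 1.33 (SE 0.08, adjusted p = 1.37e-05). In KASUMI-1 it fell from 89.5, 88.1 and 85.8 to 56.6, 54.4 and 51.0 CPM, a log2 fold change of -0.75 (SE 0.08, adjusted p = 3.36e-05). Every KASUMI-1 etoposide library was below every untreated one, and DRAM1 there remained the highest of all lines together with NOMO-1, at 52.3, 56.4 and 47.1 CPM. F-36P did not change beyond its spread (-0.06, adjusted p = 0.749), with overlapping groups. MV-4-11, MONO-MAC-6, THP-1, NOMO-1 and MOLM-13 were higher by 0.44 to 0.81. NB-4 was at 0.25 (adjusted p = 0.109), which passed with its replicate numbers as a block (adjusted p = 0.0456). Of the 3 lines where the p53 target MDM2 was induced, DRAM1 was induced in OCI-AML3. It was higher without reaching 2-fold in MOLM-13 (0.44) and MV-4-11 (0.81). MDM2 was higher without reaching 2-fold in MONO-MAC-6 (0.61) and NOMO-1 (0.65), where DRAM1 was higher too. MDM2 did not change beyond its spread in F-36P (-0.22) and KASUMI-1 (-0.02), and was lower in NB-4 (-0.33, adjusted p = 0.0075, edgeR). Among these, DRAM1 passed as higher only in NB-4 with the replicate block. In HL-60 (0.14) and THP-1 (0.03) MDM2 did not pass, yet DRAM1 was induced in HL-60 and higher in THP-1. Over the lines analysed, Pearson r between the changes of DRAM1 and MDM2 was 0.51. The part of p53 in the DRAM1 changes was not tested.

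**Figure D4:**
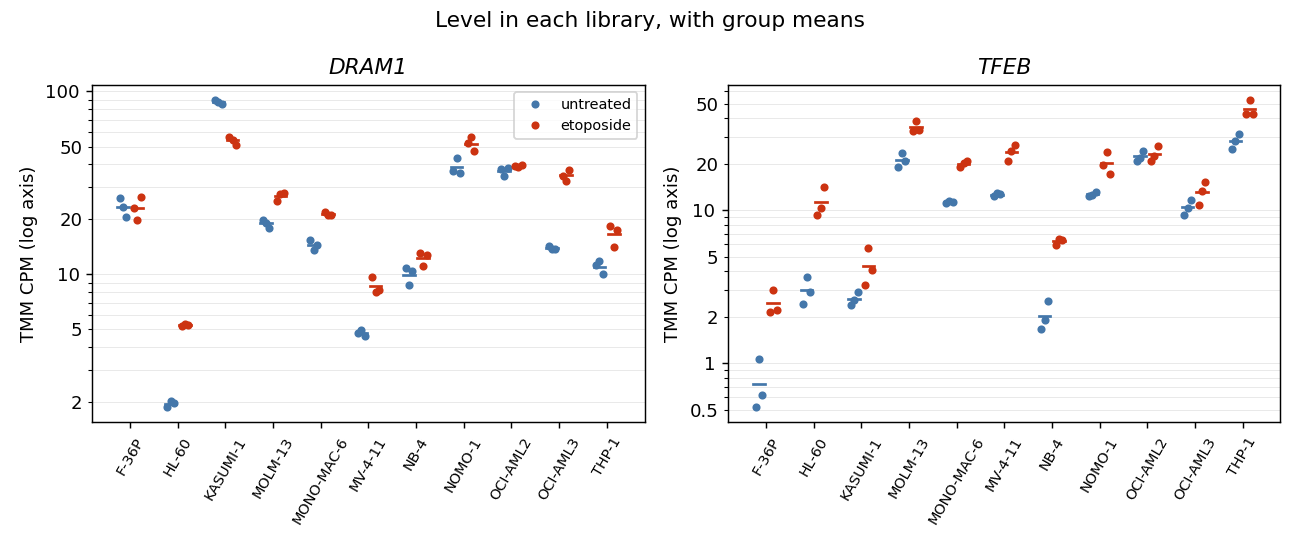
Level of DRAM1 and TFEB in each library of 11 lines. The vertical axis is CPM on a log scale, blue points are untreated and red points etoposide libraries, and bars are group means. DRAM1 is lower after etoposide in KASUMI-1 and higher in HL-60 and OCI-AML3, and TFEB starts below 4 CPM in F-36P, HL-60, KASUMI-1 and NB-4.

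Of the initiation genes, ULK1 was higher in 7 of 10 lines without reaching 2-fold in any, with the largest change in F-36P, from 28.1, 24.2 and 21.3 to 38.4, 49.6 and 48.1 CPM (0.85, SE 0.14, adjusted p = 0.000506, edgeR), and MONO-MAC-6 close to it at 0.84. In KASUMI-1, HL-60 and THP-1 the change was 0.16 to 0.23 and the groups overlapped. BECN1 was higher in 5 lines, at most by 0.39 in OCI-AML3, where it went from 80.5, 78.7 and 82.9 to 106, 112 and 95.3 CPM (adjusted p = 0.00464).

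The conjugation genes showed no common direction. ATG5 was higher in NOMO-1 (0.43, adjusted p = 0.00412, edgeR), from 24.2, 22.2 and 22.4 to 27.4, 31.5 and 32.4 CPM, and lower in MOLM-13 (-0.38, adjusted p = 0.00895), from 48.7, 44.8 and 44.4 to 42.1, 33.03 and 35.7 CPM. In NB-4 it was at 0.23 (adjusted p = 0.0588, and 0.0220 with the replicate block). ATG16L1 was lower in KASUMI-1 (-0.50, adjusted p = 0.0144), NB-4 (-0.36, adjusted p = 0.0203) and MONO-MAC-6 (-0.30, adjusted p = 0.00907), and higher in 0 lines. The remaining values of both genes lay between -0.31 and 0.24 and did not pass.

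The etoposide change differed between lines for 9 of 10 members (line by treatment F test over 60 libraries, edgeR, FDR below 0.05), against 74.5% of 19974 genes tested, so a difference between lines was the usual case. DRAM1, GABARAPL1 and MAP1LC3B had F values above those of 96.8%, 95.3% and 95.2% of genes, while BECN1 did not pass (adjusted p = 0.0826). When each line was set against the mean of the other 9, GABARAPL1 was larger in F-36P by 1.24 (SE 0.13, adjusted p = 6.05e-11) and in KASUMI-1 by 0.94 (SE 0.14, adjusted p = 5.28e-07), and smaller in HL-60 by -1.41 (SE 0.14, adjusted p = 2.25e-11) and in NB-4 by -0.77 (SE 0.13, adjusted p = 1.31e-05). MAP1LC3B was larger in NOMO-1 by 1.05 (SE 0.11, adjusted p = 3.35e-10), in THP-1 by 0.86 and in HL-60 by 0.45, and smaller in MOLM-13 by -0.84, in MV-4-11 by -0.77, in KASUMI-1 by -0.42 and in OCI-AML3 by -0.36. The 2 ATG8 genes thus had different lines at each end.

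In HL-60, KASUMI-1 and OCI-AML3, 5 members each differed from the mean of the other lines. HL-60 had 3 larger (9.52% of all genes) and 2 smaller (7.55%). In that line TFEB was larger by 1.00 (SE 0.19, adjusted p = 6.24e-05, edgeR) and DRAM1 by 0.99 (SE 0.15, adjusted p = 1.33e-06), whereas WIPI1 was smaller by -0.79 (SE 0.15, adjusted p = 8.06e-05). KASUMI-1 had 2 larger (15.3%) and 3 smaller (14.6%), among them SQSTM1, larger by 0.52, and DRAM1, smaller by -1.36 (SE 0.10, adjusted p = 5.42e-16). OCI-AML3 had 2 larger (6.73%) and 3 smaller (9.81%), with DRAM1 larger by 0.88 and WIPI1 by 0.63, and TFEB smaller by -0.76 and SQSTM1 by -0.58. F-36P had 2 larger (15.9%), GABARAPL1 and TFEB, and 2 smaller (17.6%), DRAM1 by -0.60 and WIPI1 by -0.34.

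In MV-4-11, 2 members were larger (7.75%), WIPI1 by 0.94 (SE 0.21, adjusted p = 0.00081, edgeR) and DRAM1 by 0.37, and 2 smaller (5.45%), MAP1LC3B and SQSTM1 (-0.49). NB-4 had TFEB larger by 0.68 (10.5% of genes were larger) and GABARAPL1 smaller (9.05% were smaller). NOMO-1 had 2 larger (8.74%), MAP1LC3B and ATG5 (0.38), and 0 smaller (15.1%), and THP-1 had 2 larger (11%), MAP1LC3B and ATG16L1 (0.38), and 0 smaller (14.2%). MOLM-13 had ATG16L1 larger by 0.40 (12.4% of genes were larger) and 2 smaller (12.6%), MAP1LC3B and ATG5 (-0.42). In MONO-MAC-6 only WIPI1 differed, smaller by -0.51 (adjusted p = 0.0101), with 0 members larger, against 11.1% of genes smaller and 4.71% larger there.

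The etoposide-treated OCI-AML2 libraries that the study set aside showed 0 member calls by edgeR, by the exact test and by DESeq2. The share of genes induced there was 0%, 3 of 13604 genes (0.0221%) passed an FDR of 0.05, and 456 genes had an unadjusted p under 0.05. Among the members, MAP1LC3B had an unadjusted p under 0.05, with 25.1, 25.6 and 26.2 CPM untreated and 28.4, 28.7 and 29.9 CPM with etoposide (log2 fold change 0.18, adjusted p = 0.998). CDKN1A rose there by 0.73 (SE 0.06, adjusted p = 0.000289) and MDM2 by 0.47 (adjusted p = 0.00593).

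Markers of other cell states, in CPM scaled to library size alone, moved in the same libraries. The summed level of the 5 monocyte markers (CD14, ITGAM, CSF1R, LYZ and CD68) was higher with etoposide in 8 of 10 lines, by 1.80-fold in THP-1 to 6.79-fold in KASUMI-1, where it went from 70.4 to 76.0 CPM untreated to 480 to 512 CPM, and it was 0.917-fold in MONO-MAC-6 and 0.976-fold in NOMO-1. Between 2 and 4 of the 5 markers were higher in each of the 10 lines, while CD68 was below 1 CPM in every untreated line. The markers, CD68 among them, were not checked for exons shared with other genes. The mean mitochondrial share of reads was also higher with etoposide in 9 of 10 lines, from 5.47% to 7.20% in MOLM-13 but only from 5.75% to 5.77% in NOMO-1. The part of these shifts, and of the additional genes read in F-36P and KASUMI-1, in the member changes was not tested.

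Beyond the members, 76 further genes of autophagy and lysosome lists gave 714 tested combinations of gene and line, with 46 induced (6.44%) and 10 repressed (1.40%), shares below those of all genes (11.1% and 3.96%). Their median log2 fold change was 0.19. The core machinery stayed mostly below 2-fold. The class III PI3K complex around BECN1 had 0 of 60 combinations induced by edgeR, with 12 higher and 15 lower at FDR below 0.05, and the ATG4 proteases, which process ATG8 proteins, had 0 of 40 induced, with 13 higher and 3 lower. In the ULK1 complex 2 of 37 were induced, both of ULK2, the paralogue of ULK1, in F-36P (0.0348 to 0.670 CPM, the first under the level of 3 reads per library) and KASUMI-1 (0.782 to 2.03 CPM). In F-36P ULK2 passed the filter on low counts only through its etoposide libraries.

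Among proteins of the growing membrane, WDR45, a relative of WIPI1, was induced in 4 of 10 lines and higher in all 10, with the largest change in NOMO-1, from 22.2 ± 0.92 to 63.6 ± 6.2 CPM (mean ± SD, n = 3). WIPI2 was induced in 0 lines, and higher in 4. ATG9B, a lipid scramblase, was induced in F-36P (1.43 to 13.7 CPM) and repressed in MONO-MAC-6 (1.78 to 0.635 CPM). Of the conjugation genes, ATG16L2, the paralogue of ATG16L1, was induced in F-36P and KASUMI-1 (1.14 and 1.19) and lower in THP-1 (-0.56). In the rest of the ATG8 family 6 of 27 combinations were induced (22.2%), of which MAP1LC3A held 4, in KASUMI-1, MOLM-13, MV-4-11 and THP-1. MAP1LC3B2 was induced in F-36P, the only line where it was tested, GABARAP was induced in 1 line, and GABARAPL2 in 0 while higher in 4. The filter on low counts keeps a gene that is read enough in either group. MAP1LC3A in MV-4-11 (0.0847 to 1.01 CPM) and MOLM-13 (0.448 to 1.69 CPM) passed it only through its etoposide libraries, as did MAP1LC3B2 in F-36P (0.200 to 0.686 CPM). A rise there was close to a condition of being tested, so the share of 22.2% is partly set by the filter.

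Receptors split by gene. OPTN, which carries damaged mitochondria and bacteria to autophagosomes, was induced in 6 of 9 lines, with the largest change in KASUMI-1, from 0.712 ± 0.21 to 43.0 ± 0.96 CPM (log2 fold change 5.86, adjusted p = 5.71e-08, edgeR). RETREG1, a receptor for endoplasmic reticulum, was induced in 4 of 7 lines and higher in all 7, for example in THP-1 from 5.97 to 19.4 CPM. OPTN in NB-4 (0.326 to 5.02 CPM) and NOMO-1 (0.365 to 6.89 CPM) passed the filter on low counts only through its etoposide libraries. So did RETREG1 in MONO-MAC-6 (0.246 to 0.665 CPM) and KASUMI-1 (0.451 to 1.42 CPM). The counts of lines for both genes are thus partly set by the filter. BNIP3, a mitochondrial receptor known as a hypoxia target, was repressed in 6 of 9 lines and higher in 0, for example in OCI-AML3 from 106 ± 12 to 21.4 ± 1.8 CPM (log2 fold change -2.29, adjusted p = 2.58e-06). In F-36P its log2 fold change was -0.093 (adjusted p = 0.566). Its relative BNIP3L was induced in KASUMI-1 (1.18) and repressed in MONO-MAC-6 (-1.11). In all, 13 of 104 combinations of receptor and line were induced and 7 repressed.

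Of the transcription factors, TFE3, which shares targets with TFEB, was higher in 9 of 10 lines and induced in KASUMI-1 (1.22). TFEC was induced in 3 lines and repressed in NOMO-1 (-1.18), and FOXO3 was repressed in F-36P (-1.02) and higher in 6 lines. For fusion of autophagosomes with lysosomes, 1 of 90 combinations was induced, PLEKHM1 in F-36P (1.12), although SNAP29 was higher in all 10 lines and VAMP8, its partner SNARE, was lower in 9. In the lysosome list 13 of 195 combinations were induced and 0 repressed by edgeR, with 98 higher and 22 lower at FDR below 0.05. SGSH, a heparan sulphate sulphatase, was induced in 6 of 7 lines, from 1.44 ± 0.034 to 24.7 ± 3.1 CPM in F-36P. In NOMO-1 (0.383 to 1.62 CPM) and MOLM-13 (0.533 to 1.60 CPM) SGSH passed the filter on low counts only through its etoposide libraries. Its count of lines is thus partly set by the filter. CTSL, a lysosomal protease, was induced in F-36P and MONO-MAC-6.

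The genes whose log2 fold changes over the 10 lines were most like those of a member were ranked by Pearson r over 10543 genes, with 10 points each that share libraries and depth, and are given as a description. GABARAPL1 was closest to RALB (0.963), IFITM2 (0.944) and ETFDH (0.935), MAP1LC3B to TXNL4B (0.969), PRDM4 (0.960) and CCNT1 (0.959), and WIPI1 to ORC4 (0.882), EHHADH (0.845) and PDIA3P1 (0.835). SQSTM1 was closest to UNC119B (0.942), DNTTIP1 (0.931) and GIN1 (0.915), TFEB to ZNF48 (0.925), IFFO2 (0.913) and IL17RE (0.911), and DRAM1 to EIF5AL1 (0.916), GTF3A (0.914) and ZC3H7B (0.912). For ULK1 they were GNAS (0.911), TAX1BP3 (0.887) and NHSL1 (0.851), for BECN1 JAK2 (0.952), EFR3A (0.935) and RPS27L (0.890), for ATG5 ZFHX3-AS1 (0.975), SCLT1 (0.951) and ZNF569 (0.945), and for ATG16L1 COG2 (0.961), EMC1 (0.949) and PCCB (0.944). No member was among the 3 genes closest to another member. Between members, r was -0.36 for GABARAPL1 and MAP1LC3B, -0.65 for GABARAPL1 and DRAM1, and 0.54 for SQSTM1 and MAP1LC3B.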

How the data were processed

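RNA-seq was done on 66 libraries of 11 AML cell lines. Per the methods and the labels, the authors mapped reads with STAR 2.5.3a against GRCh38.p7 using the annotation of gencode 25, counted reads per gene and deposited these raw counts without normalization; they tested with edgeR 3.20.1. Which count column of STAR was kept is not given in the sources used here, but 353 of 446 genes inside an exon of the opposite strand had reads, so the values fit a strand-aware count.

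Of 58037 identifiers, 45 with 0 reads that repeat genes shared by X and Y were left out, and 56948 of the remaining 57992 were named from gencode 44. From the deposited counts each line was tested with edgeR 4.0.16 in R 4.3.3 (filterByExpr, minimum count 10, minimum total 15; TMM; quasi-likelihood test; Benjamini-Hochberg over all genes tested). OCI-AML2 was fitted apart. Printed CPM was TMM-normalized over all 66 libraries, except for cell type markers, which were scaled to library size alone. For the members, log2 ratios of printed CPM differ from fitted values by -0.028 to 0.064. Mean changes over 10 lines were tested by exact sign flips, and differences between lines and basal levels by F tests of joint edgeR fits. The tests were checked on simulated data with known changes. The sign-flip test recovered them only where many genes changed, since its smallest p is set by the number of lines, so a gene that misses it may still have changed. DESeq2 1.42.0, edgeR's exact test, limma 3.58.1, other normalizations and filters, a replicate block and leaving out each library were tried. Summaries used Python 3.11.15.

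Depth sets counting error only, with a floor of 3 counts per library. No pair of libraries agreed within sampling noise (lowest chi-square per degree of freedom 2.05). Replicate numbers paired the libraries in NB-4, where deviations of same-numbered libraries correlated by 0.152 to 0.265 in all 3 pairs; elsewhere they share only a number. The members and gene lists were chosen with earlier results of these data known. Further genes named are, per list, up to 2 in each direction with the most lines called, CDKN1A and MDM2, and for each member the 3 highest Pearson r, with genes averaging under 1 CPM left out. WIPI2, GABARAP, GABARAPL2, SNAP29 and VAMP8 were named after their values were seen.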

Additional observations from a re-analysis of the deposited data

Results flagged for a closer look

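The change with etoposide differed between the 10 lines by the test of the interaction of line and treatment (edgeR, adjusted over 19974 genes) for 9 members. The adjusted p was 4.51e-17 for DRAM1, 1.19e-15 for GABARAPL1, 1.61e-15 for MAP1LC3B, 1.72e-07 for WIPI1, 3.38e-07 for TFEB, 1.59e-06 for SQSTM1, 0.000735 for ATG16L1, 0.00737 for ULK1 and 0.0117 for ATG5. As 74.5% of all genes passed the same test, a difference between lines is the usual case in these data. Line and etoposide concentration cannot be told apart. GABARAPL1 changed by 2.74 on the log2 scale in F-36P and by 0.37 in HL-60, MAP1LC3B by 2.16 in NOMO-1 and 0.37 in MOLM-13, and DRAM1 by 1.39 in HL-60 and -0.75 in KASUMI-1.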

How the results depend on the processing

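Of 31 member calls, 27 held under every alternative run for them. SQSTM1 in F-36P lost its call under 7 settings (log2 fold changes of 0.82 to 1.00, all below 2-fold), SQSTM1 in THP-1 under 2, and SQSTM1 in NOMO-1 and WIPI1 in MONO-MAC-6 under 1 each. Calls were gained in 7 pairs, most often for SQSTM1 in HL-60 (7 settings) and NB-4 (5). The number of induced member calls was 28 to 38 (38 with library size alone, which moved the median of all genes to 0.34 in F-36P, 0.20 in KASUMI-1 and 0.21 in NB-4, from 0.09, 0.03 and 0.01), and the number repressed was 0 throughout. Leaving out 1 library in turn gave 30 to 33 induced calls, 65 to 70 higher and 4 to 6 lower without a fold minimum, and 41 to 47 induced calls in the further lists. The 5 lower values without a fold minimum became 2 with library size alone, and the 7 members higher on average over lines became 8 with library size alone and with limma. With the replicate block 30 member calls remained as a count, the number of members differing between lines went from 9 to 8, NB-4 had 10 values past an FDR of 0.05 in place of 8, and NOMO-1 had 8 in place of 9 because BECN1 had an adjusted p of 0.0775. Without F-36P, an alternative chosen after seeing the data, 27 member calls and 35 induced and 9 repressed list calls were counted.

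Values near 0 turned their sign in 20 cases, none of them called. With library size alone ATG5 became 0.027 in F-36P and 0.0085 in MV-4-11, ATG16L1 became 0.10 in HL-60 and 0.035 in NOMO-1, and DRAM1 became 0.19 in F-36P. Keeping only genes that average 5 CPM or more, ATG16L1 in HL-60 became 0.016 and DRAM1 in F-36P 0.099. ATG16L1 in HL-60 was 0.030 in 1 fit of 60 libraries, and BECN1 in F-36P was -0.019 without the filter on low counts. Leaving out 1 library at a time gave -0.065 to 0.11 for BECN1 in F-36P, -0.019 to 0.22 for ATG5 in OCI-AML3, -0.11 to 0.092 for ATG16L1 in HL-60, -0.026 to 0.094 for ATG16L1 in MV-4-11, -0.19 to 0.052 for ATG16L1 in NOMO-1 and -0.23 to 0.033 for DRAM1 in F-36P. The cause was not tested.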
